A study of Mus musculus with 3 samples.

Results

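Cadherins are cell surface proteins through which neighbouring cells hold on to each other. Described here are 7 mouse cadherin genes, Cdh1, Cdh2, Cdh3, Cdh4, Cdh10, Cdh11 and Cdh13, out of 19938 genes with a value, in healing skin wounds. The genes were chosen by name, with their values on the 3 days already known, so what follows describes them and tests nothing. Wounded tissue came from the backs of 6-week-old C57Bl/6 mice, an inbred strain, that carried a large excision of 1.5 cm2 through epidermis and dermis. The dissection took dermis with any epidermis over it and kept clear of intact skin and of follicles at the wound edge. All animals were wounded, and no unwounded skin is among the samples. The groups are days 10, 12 and 14 after the operation, with 1 one-colour array per day, each made from the combined tissue of 3 mice. With 1 array per day there is no spread between samples, no p-value is given, and a difference compares single pools. The labels state no sex. The Y-linked gene Eif2s3y stood at 5.49, 9.59 and 8.38 log2 units on days 10, 12 and 14, and the part of the pools' sex makeup in the values below was not tested.

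Classical cadherins bind a like cadherin on the next cell through their outer domains and hold beta-catenin, plakoglobin and p120-catenin on their inner tail. Alpha-catenin then ties the complex to actin. E-cadherin joins the cells of epithelia, P-cadherin is found in basal keratinocytes and hair follicles, and N-cadherin and cadherin 11 are typical of mesenchymal cells. The Snail, Zeb and Twist transcription factors are known to repress the E-cadherin gene. T-cadherin lacks the inner tail and is held to the membrane by a lipid anchor.

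Differences are given for an early interval (day 12 minus day 10), a late interval (day 14 minus day 12) and the whole interval (day 14 minus day 10). The epithelial cadherin Cdh1 had a higher value on each later day, while Cdh2, Cdh3, Cdh10 and Cdh11 had a lower one. Cdh10 was the only member that passed a 2-fold difference. It did so over the early and the whole interval. Cdh4 was slightly higher on each later day at a low level, and Cdh13 was the same on day 14 as on day 10. Values are log2 expression as deposited by the authors, and each member has 1 probe set that names it alone. A gene passed the level filter when its highest value over the 3 arrays reached 8.36, the median of that quantity. Of the 7 members 6 passed, and Cdh4 did not. Cdh10 passed through its day 10 value alone, so its presence above the filter depended on the difference described.

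**Figure D1:**
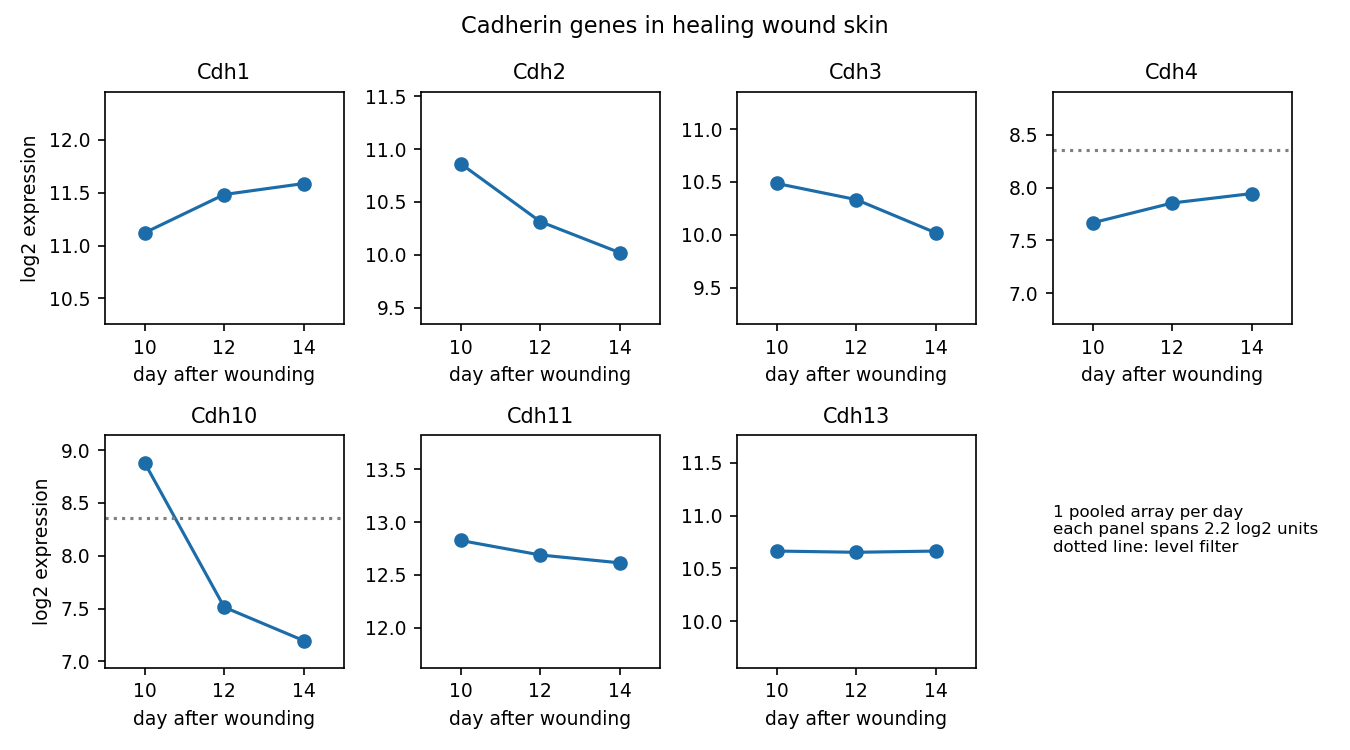
Log2 expression of the 7 cadherin genes on days 10, 12 and 14 after wounding, with 1 pooled array per day. Each panel covers the same span of log2 units around the gene's own level, and a dotted line marks the level filter of 8.36 where it lies in the panel. Cdh10 has the steepest line, Cdh2 the next, and Cdh13 is nearly flat.

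A start region of Cdh10 is shown because this gene differed most among the members. That of Snai1 is shown because it encodes a repressor of E-cadherin whose value also differed about 2-fold. Snail and Zeb proteins bind the hexamer CAGGTG, which reads CACCTG on the opposite strand, and any match is in capitals. Both windows come from RefSeq with the GRCm38.p6 build, lie on the plus strand, and hold 250 bases before the start site and 50 from it onwards. The Cdh10 window is chr15:18820079-18820378 and the Snai1 window is chr2:167537945-167538244. In the GRCm38.p6 gene table Cdh10 begins at 18818869, so its window lies inside the gene and does not cover that beginning. Of the members, 1 of 7 matched an entry.
Cdh10: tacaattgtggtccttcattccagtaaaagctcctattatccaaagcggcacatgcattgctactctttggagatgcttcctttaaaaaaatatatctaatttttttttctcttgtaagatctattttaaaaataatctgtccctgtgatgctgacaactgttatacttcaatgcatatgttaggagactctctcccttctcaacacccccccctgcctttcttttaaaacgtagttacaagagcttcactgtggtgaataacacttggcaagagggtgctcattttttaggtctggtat
Snai1: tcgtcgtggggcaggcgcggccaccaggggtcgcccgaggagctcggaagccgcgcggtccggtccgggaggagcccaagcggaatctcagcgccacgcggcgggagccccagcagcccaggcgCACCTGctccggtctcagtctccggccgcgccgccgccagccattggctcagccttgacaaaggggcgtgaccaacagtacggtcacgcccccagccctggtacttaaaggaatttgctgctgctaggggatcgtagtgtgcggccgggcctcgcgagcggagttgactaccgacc
The Snai1 window held 1 match, beginning 126 bases before the start site, and these letters were not in the Cdh10 window on either strand. Of 32851 start windows of the same length, 20.2% held the hexamer on either strand. A match is a description of the letters and not evidence of binding.

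Among the type I classical cadherins, Cdh1, which encodes E-cadherin, stood at 11.12, 11.48 and 11.59 log2 units on days 10, 12 and 14. The day 10 value was the lowest, and most of the difference lay in the first pair of days. Cdh1 was 1.29-fold higher on day 12 than on day 10 (log2 difference 0.36) and 1.38-fold higher on day 14 than on day 10 (0.47). Of the genes above the filter, 93.1% had a smaller signed difference than Cdh1 over the whole interval. This size was below 2-fold in each comparison.

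Cdh2, which encodes N-cadherin, had values of 10.86, 10.31 and 10.02 log2 units on days 10, 12 and 14. Day 10 was the highest and day 14 the lowest. The log2 difference was −0.55 over the early interval, −0.29 over the late interval and −0.84 over the whole interval, the last a 1.80-fold lower value. Only 1.75% of genes above the filter had a lower difference than Cdh2 over the whole interval. The difference of Cdh1 minus that of Cdh2 was 0.91 over the early interval, 0.40 over the late interval and 1.31 over the whole interval. The balance of E-cadherin to N-cadherin transcript was thus 2.48-fold further towards Cdh1 on day 14 than on day 10, a ratio of changes that does not compare the levels of the 2 probe sets.

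Cdh3, which encodes P-cadherin, stood at 10.49, 10.33 and 10.02 log2 units on days 10, 12 and 14. The values stepped down over the series, with the larger step in the second pair of days (−0.15 over the early interval and −0.32 over the late interval). On day 14 it was 1.38-fold lower than on day 10 (−0.47), close in size to the difference of Cdh1 and opposite in sign. Cdh1 and Cdh3 lie beside each other on chromosome 8 in the GRCm38.p6 gene table, with 0 protein-coding genes between them. The difference of Cdh1 minus that of Cdh3 was 0.94 over the whole interval.

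Cdh4, which encodes R-cadherin, was at 7.67, 7.85 and 7.94 log2 units on days 10, 12 and 14. All of these lay below the level filter, and detection per probe set is not known from these values. The log2 difference was 0.19 over the early interval and 0.28 over the whole interval.

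Of the type II cadherins, Cdh10, known mainly from the nervous system, had values of 8.88, 7.51 and 7.19 log2 units on days 10, 12 and 14. The day 10 pool was high and the other pools were low. The values on days 12 and 14 lay below the medians of their arrays, 7.55 and 7.53. Cdh10 was 2.58-fold lower over the early interval (log2 difference −1.37) and 3.22-fold lower over the whole interval (−1.69). It was 1.25-fold lower on day 14 than on day 12 (−0.32). Over the early interval, 2 of the 9969 genes above the filter had a lower difference than Cdh10, and over the whole interval there were 8.

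Cdh11, a cadherin of fibroblasts and other mesenchymal cells, stood at 12.83, 12.69 and 12.61 log2 units on days 10, 12 and 14. It was 1.16-fold lower on day 14 than on day 10 (−0.21), with differences of −0.14 and −0.07 over the first and second pair of days. A further 3 probe sets name Cdh11 together with 6820431F20Rik and 2610005L07Rik and were left out. Their differences over the whole interval ran from −0.02 to 0.00, and with them averaged in, the difference of Cdh11 was −0.06. Which of the transcripts these probe sets read cannot be told from the values.

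Cdh13, which encodes T-cadherin, stood at 10.67, 10.65 and 10.67 log2 units on days 10, 12 and 14. The day 12 value differed from the others by 0.01 log2 units, and the values of days 10 and 14 were equal. Equal values arise often in these data. Of the genes above the filter, 16.6% had equal values on days 10 and 14, and 23.1% of all probe sets had the same value on all 3 arrays. A difference of 0.00 is thus no precise measurement. Adipoq, the gene of adiponectin, a known ligand of T-cadherin, stood at 5.74, 5.74 and 5.76 on days 10, 12 and 14, below the filter.

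Over the early interval, 0 of 7 members were at least 2-fold higher, where 1.48% of the 9969 genes above the filter were, and 1 was at least 2-fold lower, where 0.181% of genes were. Over the late interval, 0 members were past 2-fold either way, beside 0.0301% of genes higher and 0.361% lower. Over the whole interval, 0 members were at least 2-fold higher, beside 2.24% of genes, and 1 was lower, beside 0.913%. Since these values were known when the members were chosen, nothing is read from these shares. By direction alone, 4 of 6 members above the filter were lower on day 14 than on day 10, 1 was higher and 1 equal, with a median of −0.34 (−0.21 over all 7 members). Among all genes above the filter 53.8% were lower and 29.6% higher, with a median of −0.02.

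**Figure D2:**
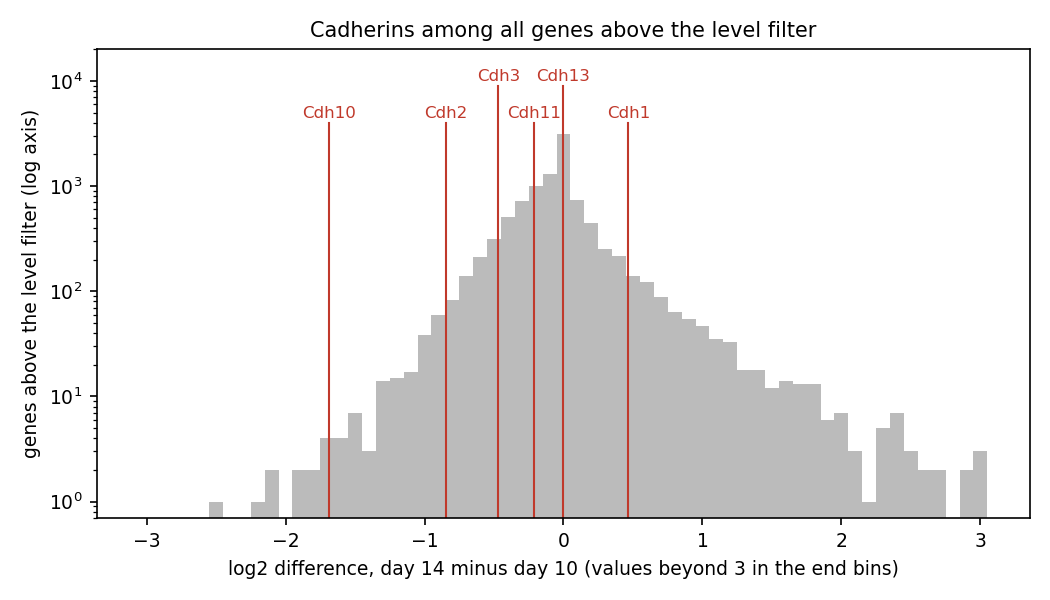
Histogram of the log2 difference of day 14 minus day 10 over the 9969 genes above the level filter, with the number of genes on a log axis, and red lines at the 6 members above it. Cdh10, at −1.69, lies in the thin lower tail, Cdh2 lies at −0.84, and Cdh1 is the member to the right of 0, at 0.47.

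Genes with the pattern most like a member were sought for the members whose values spanned at least 0.5 log2 units, Cdh2 and Cdh10. Likeness was the distance between the 3 log2 values after each gene was centred on its own mean, over 9726 genes above the filter. Nearest to Cdh2 were Lpar4, Tfpi and Tes, at distances of 0.0075, 0.0076 and 0.0098. Tfpi, which encodes an inhibitor of coagulation, stood at 10.95, 10.41 and 10.12 on days 10, 12 and 14. Nearest to Cdh10 were Rpp25, Ecrg4 and Cck, at 0.12, 0.15 and 0.17. Each of these, like Cdh10, passed the filter through day 10 alone, so the filter favoured this pattern. Cck, the gene of the peptide cholecystokinin, stood at 9.50, 8.15 and 7.62. Each pattern rests on 3 arrays, and the neighbours of Cdh10 were more distant than those of Cdh2.

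Within the wider cadherin superfamily, 52 genes were measured with the members included, and 19 passed the level filter. Of these 19, 12 were lower on day 14 than on day 10, 5 were higher and 2 were equal, with a median of −0.21. Among all genes above the filter 53.8% were lower and 29.6% higher, with a median of −0.02. The 19 hold the 6 members above the filter, which were chosen with their values known, and nothing is read from this count. Among the 15 other classical and related cadherins, Cdh5, which encodes the VE-cadherin of endothelial junctions, passed the filter and the other 14 did not. It stood at 12.22, 12.10 and 11.93 on days 10, 12 and 14, a difference of −0.29 over the whole interval. Cdh19, a cadherin gene of the Schwann cell lineage, was picked after its values were seen. It was 2.51-fold higher on day 14 than on day 10, at 6.27, 7.47 and 7.59 on days 10, 12 and 14, all below the filter. Cdh6, picked in the same way, stood at 7.43, 7.87 and 7.97. In this list 6 of the 15 genes had equal values on all days.

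Cadherins of planar polarity and their relatives moved in both directions. Of the 8 atypical and related genes above the filter, 4 were lower on day 14 than on day 10, 3 were higher and 1 was equal, and the median was −0.03. Clstn2, a calsyntenin gene, was 2.37-fold lower on day 14 than on day 10, at 11.20, 10.51 and 9.96 on days 10, 12 and 14. Celsr2 and Celsr1, which encode seven-pass cadherins of planar cell polarity, were 2.28-fold and 1.86-fold higher on day 14 than on day 10. Fat2, an epidermal atypical cadherin gene, was 1.62-fold higher. Of the 4 delta protocadherins above the filter, 3 were lower on day 14 than on day 10 and 1 was higher. Pcdh18, Pcdh19 and Pcdh7 differed by −0.69, −0.39 and −0.33, and Pcdh1 by 0.22. Celsr1 and Pcdh1, at 8.27 and 8.32 on day 10, passed the filter only through later days, so the filter favoured their increase. Both are among the 5 higher superfamily genes counted above. With no filter the medians were 0.01 over 19 atypical and related genes and −0.12 over 11 delta protocadherins. None of the 11 measured delta protocadherins reached 2-fold in any comparison.

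**Figure D3:**
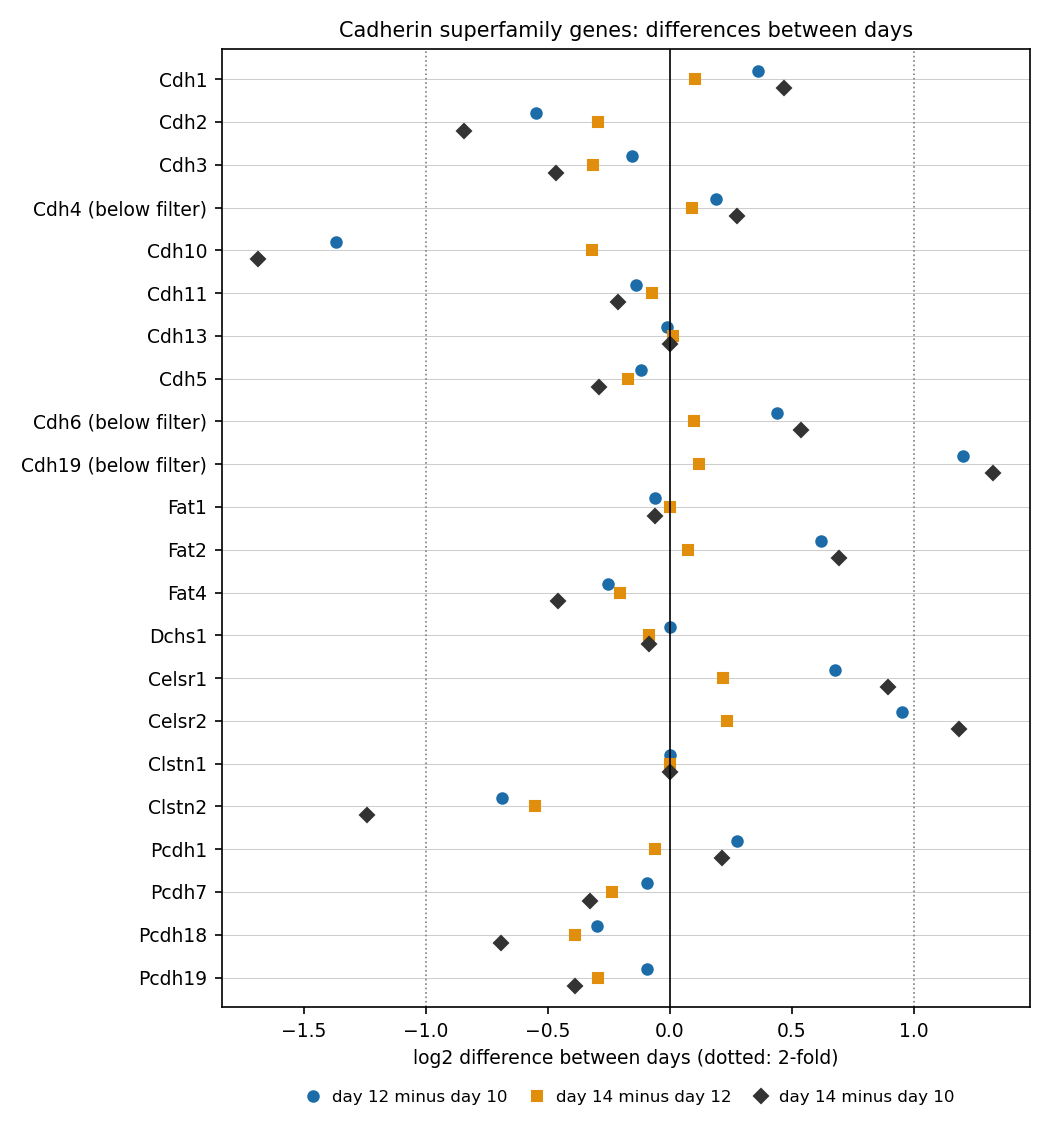
Log2 differences between days for the cadherin members, the other superfamily genes above the level filter, and Cdh6 and Cdh19 below it. Blue circles are day 12 minus day 10, orange squares day 14 minus day 12 and black diamonds day 14 minus day 10, with dotted lines at 2-fold. Cdh10 and Clstn2 lie past the left line, and Cdh19 and Celsr2 past the right one.

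Ctnnb1, the beta-catenin gene, had the same value of 12.41 on all 3 days. Jup, the plakoglobin gene, stood at 12.85, 13.01 and 13.06 on days 10, 12 and 14, a difference of 0.21 over the whole interval. Ctnna1, the alpha-catenin gene, and Ctnnd1, the p120-catenin gene, differed by 0.17 and 0.11 over the same days. All but Ctnnb1 thus shared the direction of Cdh1. In the list of catenins and actin links, 18 of 22 genes passed the filter, 10 were higher, 6 lower and 2 equal over the whole interval, and the median was 0.04. Arvcf, 1 of those higher, passed the filter through day 14 alone, and over all 22 genes the median was also 0.04. The list held 0 genes past 2-fold. Ctnnbip1, an inhibitor of beta-catenin binding to its transcription partners, differed by 0.56, and Afdn, the afadin gene, by 0.43. Ctnnal1 differed by 0.41, and Actn1, the gene of an actin crosslinking protein, by −0.42. Vcl, the vinculin gene, differed by −0.13.

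Nectins form adhesions beside those of cadherins. Of 7 nectin and related genes above the filter, 3 were higher on day 14 than on day 10, 2 lower and 2 equal, with a median of 0.00. Nectin1, Nectin4 and Cadm1 differed by 0.52, 0.45 and 0.44, and Pvr by −0.40. Among 27 genes of cadherin processing, trafficking and turnover, 10 were higher and 14 lower over the whole interval, with a median of −0.01. Pcsk6, a proprotein convertase gene, was 2.23-fold higher, and Tiam1, Ptprf and Ap1m2 differed by 0.90, 0.80 and 0.73. Furin, which encodes a protease that removes the prodomain of E-cadherin, differed by 0.03, and Adam10, whose product sheds it, by −0.03. Of 8 listed ligands and receptors outside the family, 3 passed the filter. Fgfr1, a receptor that N-cadherin is known to bind, differed by −0.34, Lrp6 by 0.02 and Gipc1 by 0.00.

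Most repressors of the E-cadherin gene that passed the filter were lower on the later days. Of 14 listed repressors 10 passed the filter, and over the whole interval, 8 were lower, 1 was higher and 1 equal, with a median of −0.22. Over all 14 the median was −0.08. Snai1, which encodes Snail and whose start region is printed above, stood at 10.63, 9.66 and 9.60 log2 units on days 10, 12 and 14. It was high in the day 10 pool and nearly level between days 12 and 14. It was 1.96-fold lower over the early interval and 2.04-fold lower over the whole interval. Snai2, the Slug gene, stood at 10.97, 10.76 and 10.64 and differed by −0.33 over the whole interval. Zeb1, Twist2 and the corepressor gene Ctbp2 differed by −0.46, −0.55 and −0.37. Twist1 had the same value of 10.67 on all days. Zeb2 was the exception in direction, at 11.26, 11.61 and 11.50, a difference of 0.24. Each difference apart from that of Snai1 was below 2-fold.

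Genes that promote epithelial identity and passed the filter were higher on the later days than on day 10. Of 15 listed genes 14 were measured and 10 passed the filter. All 10 were higher at day 14 than at day 10, the median being 0.67, and 1 passed 2-fold. Over all 14 measured genes the median was 0.58. Below the filter, Foxa1, Ovol2, Elf5 and Elf3 differed by 0.04, 0.02, 0.00 and −0.01. Esrp1, an epithelial splicing factor gene, stood at 10.58, 11.45 and 11.65 on days 10, 12 and 14 and was 2.10-fold higher on day 14 than on day 10. Esrp2, Grhl1 and Klf5 differed by 0.86, 0.84 and 0.72. Grhl2, which encodes an activator of the E-cadherin gene, differed by 0.64. It stood below the filter on day 10, at 8.08, and passed only through later days, so the filter favoured its increase. Trp63, the p63 gene of basal keratinocytes, stood at 10.29, 10.58 and 10.71 and differed by 0.42, close to the 0.47 of Cdh1. Trp63 and Grhl3 also belong to marker lists of the epidermis.

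**Figure D4:**
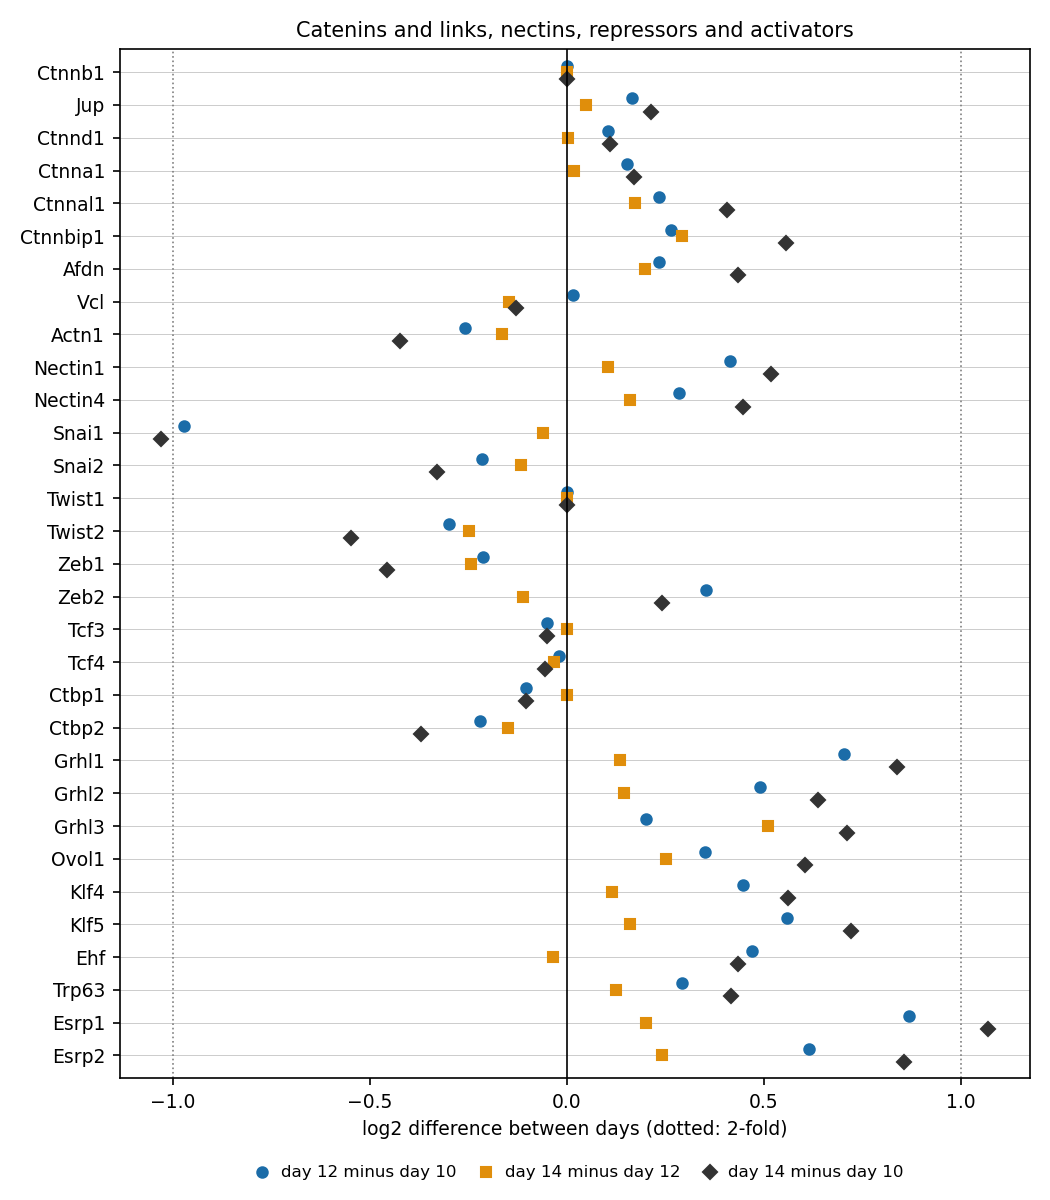
Log2 differences between days for genes above the level filter, from top to bottom a choice of catenins and actin links, a pair of nectins, the repressors of E-cadherin and the activators of the epithelial programme. Blue circles are day 12 minus day 10, orange squares day 14 minus day 12 and black diamonds day 14 minus day 10. Snai1 stands apart on the left, and the activators from Grhl1 downwards have blue and black marks to the right of 0.

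Markers of several cell types moved with these differences, and the part of tissue makeup in them was not tested. In whole tissue, fewer cells of a type and less RNA per cell cannot be told apart. Beside Cdh1, all 8 basal epidermis markers and all 11 measured markers of the differentiated epidermis were higher over the whole interval, with medians of 0.08 and 0.72. Their mean log2 values were 11.12, 11.40 and 11.53 and 11.23, 11.99 and 12.16 on days 10, 12 and 14. Krt15, Col17a1, Flg2, Krt77 and Sbsn differed by 1.94, 0.65, 2.66, 2.42 and 1.08 over the whole interval. Krt77, at 8.03 on day 10, passed the filter only through later days, so the filter favoured its increase. Cdh3, although known from basal keratinocytes, was lower while all 8 basal markers were higher, several of them barely. Itgb4, Krt14, Itga6 and Krt5 differed by only 0.02, 0.02, 0.04 and 0.05, and Dst and Trp63 by 0.11 and 0.42. All 7 Langerhans and dendritic markers above the filter were also higher over the whole interval, with a median of 1.17, and Langerhans cells are known to carry E-cadherin. Epcam, Mgl2 and Itgax of that list differed by 1.56, 1.45 and 1.37. Epcam, Mgl2 and Cd209d, at 8.27, 6.94 and 7.39 on day 10, passed the filter only through later days, so the filter favoured their increase, and over all 10 markers the median was 0.49. Cd207, the gene of the Langerhans cell protein langerin, stood at 6.11, 6.56 and 6.78 on days 10, 12 and 14, below the filter.

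Beside Cdh2, Cdh10 and Cdh11, 9 of 9 myofibroblast markers above the filter were lower over the whole interval, with a median of −0.87, and 4 of them were past 2-fold. Their mean log2 value was 11.35, 10.59 and 10.22 on days 10, 12 and 14. Cnn1, Actg2 and Myl9 differed by −2.55, −2.20 and −1.41. Cnn1, at 10.04, 8.15 and 7.49 on days 10, 12 and 14, passed the filter through day 10 alone, so the filter favoured its decrease. Over all 10 markers the median was −0.80. The 12 fibroblast markers had 7 lower, 3 higher and 2 equal, with a median of −0.03, and mean log2 values of 12.90, 12.85 and 12.80. Thy1, Pdgfrb and Pdgfra of that list differed by −0.42, −0.29 and −0.29. Cdh2 and Cdh10 thus differed by more than any fibroblast marker listed, whereas the −0.21 of Cdh11 lay within the range of that list, −0.42 to 0.13. Of the 7 pericyte markers, 5 were lower and 2 higher, with a median of −0.10, and Des, Mcam and Cspg4 differed by −1.04, −0.60 and −0.11.

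Over the whole interval Cdh13 differed by 0.00 and Cdh5 by −0.29. Beside them, 10 of 12 endothelial markers were lower, with a median of −0.50. The mean log2 values of the 12 were 10.69, 10.32 and 10.24 on days 10, 12 and 14. Cdh5 belongs to that list. Sox18, Plvap and Esam differed by −1.02, −0.91 and −0.70, whereas Vwf and Cldn5 differed by 0.18 and 0.01. In the Schwann cell and nerve list, 5 of the 6 markers above the filter were higher, with a median of 0.43. Gfra3 and Mbp, at 7.48 and 8.17 on day 10, passed the filter only through later days, so the filter favoured their increase. Over all 10 measured genes of the list the median was 0.47. Gfra3 and L1cam differed by 1.16 and 0.72, whereas Ncam1, a further neural adhesion gene, differed by −0.75 and so had the direction of Cdh2 and Cdh10. Other lists held few genes above the filter or bear on no single member. The medians over the whole interval were 0.24 over 3 hair placode genes, −0.18 over 6 of the dermal condensate, 1.58 over 8 of the sebaceous gland, −0.50 over 3 of skeletal muscle, −0.03 over 2 of melanocytes, −0.13 over 10 of macrophages and 0.48 over 4 of adipocytes. In the placode list Sostdc1, Sox9 and Lgr5 differed by 1.44, −0.60 and 0.24. In the condensate list 3 genes were lower and 3 higher. Crabp1 and Rspo3 differed by −0.46 and −0.40, with Sox18 in this list too, and Prdm1, Trps1 and Bmp4 by 0.16, 0.15 and 0.04. Of the sebaceous genes above the filter, 6 were higher and 2 lower, and over all 10 the median was 0.96. Fa2h, Krt79 and Far2 differed by 1.95, 1.92 and 1.77, and Plin2 and Mgst1 by −0.63 and −0.57. Of the higher genes, Fa2h, Far2, Elovl3 and Scd3, at 7.48, 8.02, 6.36 and 7.36 on day 10, passed the filter only through later days. The filter thus favoured their increase. The muscle genes Acta1 and Actc1, listed with Des, differed by −0.50 and −0.30, and the melanocyte genes Ednrb and Kit by −0.06 and 0.00. Acta1, at 8.76, 8.05 and 8.26 on days 10, 12 and 14, passed the filter through day 10 alone, so the filter favoured its decrease. All 10 macrophage genes were higher over the early interval, with a median of 0.31, and all 10 lower over the late one, with a median of −0.22. Over the whole interval 7 were lower and 3 higher. Arg1, Cd14 and Fcgr1 differed by −0.75, −0.70 and −0.33, and Mrc1, Csf1r and Adgre1 by 0.21, 0.16 and 0.12. The adipocyte genes Lpl, Cebpa and Pparg differed by 0.72, 0.59 and 0.36 and Fabp4 by −0.34, and over all 7 measured the median was 0.09.

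**Figure D5:**
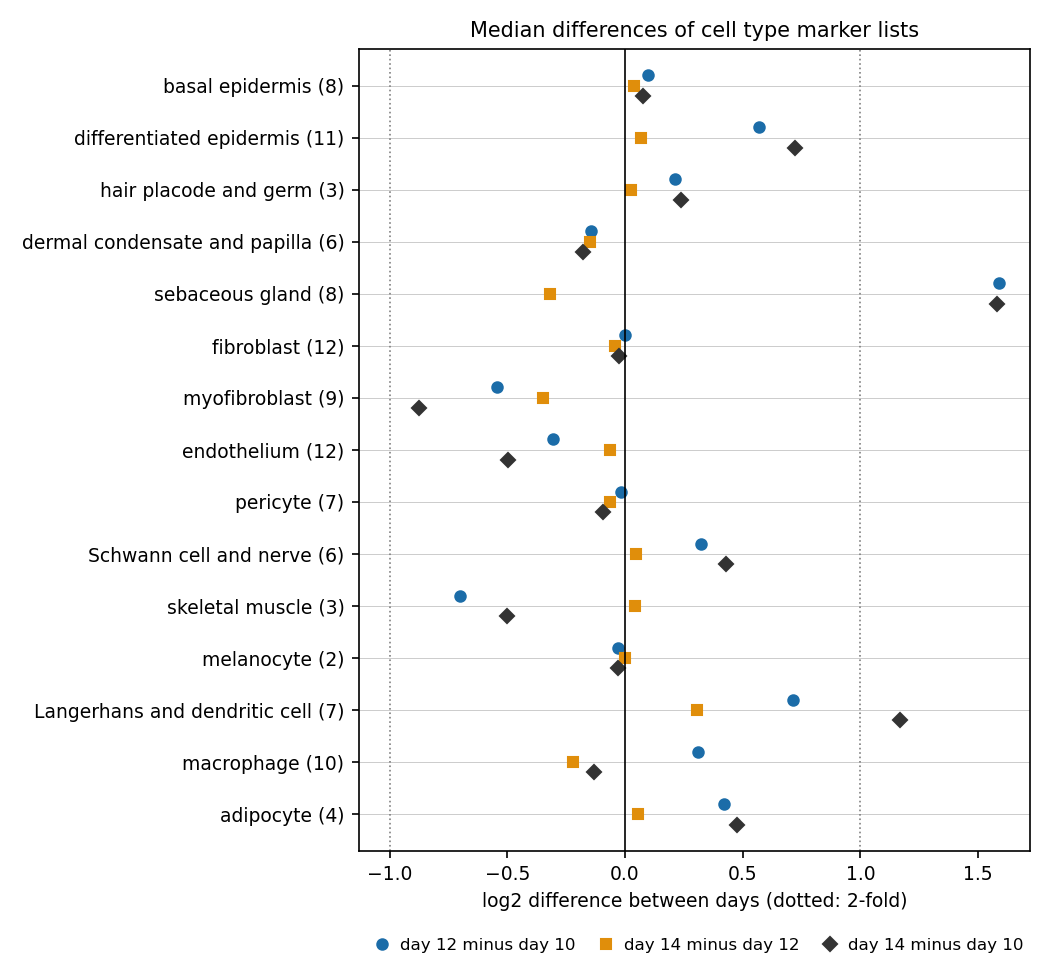
Median log2 difference between days of each cell type marker list, over the genes above the level filter, whose number stands in brackets. Blue circles are day 12 minus day 10, orange squares day 14 minus day 12 and black diamonds day 14 minus day 10. The sebaceous, Langerhans and dendritic, and differentiated epidermis lists lie to the right of 0 over the whole interval, and the myofibroblast and endothelial lists to the left.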

How the data were processed

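Expression was used as deposited by the authors, in log2 units, with 1 value for each probe set on each array. The submitters' processing notes name RMA and Partek 6.6 but not what each did. That the scale is log2 was taken from the values' range. The labels' protocols give 250 ng of total RNA amplified per pool and biotin labelling. The genome build is not given in the sources used here. The 3 array medians over 35556 probe sets were 7.53, 7.55 and 7.53, and no further scaling was applied.

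Symbols came from the platform annotation. The 21789 probe sets with 1 symbol were averaged per symbol, and the 1621 with several and 12146 unlisted were left out. Matching by Entrez identifier to the GRCm38.p6 gene table covered 21698 and changed 0 symbols. Differences are the later day minus the earlier one, and genes past 2-fold were counted over the 9969 above the level filter. With 1 array per day no test was run. The counting step was tested on simulated data. For 472 genes above the filter with a pair of probe sets, a probe set's deviation from their mean had a robust standard deviation of 0.04, 0.04 and 0.05 log2 units over the early, late and whole intervals. The 95th percentile of the deviation's size was 0.19, 0.13 and 0.22 over the same intervals. The probe sets of a pair come from the same arrays. That spread is thus technical and leaves out the spread between arrays and between animals.

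Members and gene lists were chosen with earlier results of these data known. The text names all members, a fixed set of catenins, regulators and related genes, and per list the 4 (markers: 3) genes above the filter with the largest difference between day 14 and day 10. A few are named outside that rule, among them Cdh6, Cdh19, Cd207, Eif2s3y and marker genes that ran against the others of their list. Alternatives changed the filter (none, or mean level within the top 25%), the scaling (median centring, quantile normalization, cyclic loess in limma 3.58.1), the probe set (brightest instead of the average) and the threshold (1.5-fold).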

Additional observations from a re-analysis of the deposited data

How the results depend on the processing

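Under median centring, quantile normalization and cyclic loess, Cdh1 and Cdh4 stayed higher and Cdh2, Cdh3, Cdh10 and Cdh11 lower in each comparison. Taking the brightest probe set could not change a member, since each has 1 that names it alone. Over the whole interval the ranges were 0.47 to 0.52 for Cdh1, −0.84 to −0.80 for Cdh2, −0.47 to −0.43 for Cdh3, −1.69 to −1.68 for Cdh10 and −0.21 to −0.16 for Cdh11, while Cdh13 ran from 0.00 to 0.05. With the filter on the mean in the top 25%, Cdh10 did not pass, leaving 0 members past 2-fold over the early and whole intervals. All genes past 2-fold then numbered 59 over the early interval, 12 over the late interval and 119 over the whole interval, beside 166, 39 and 314. With a 1.5-fold threshold these became 579, 151 and 1042, and the members past it over the whole interval were 2, Cdh2 and Cdh10. With the several-symbol probe sets averaged in, chosen after seeing the data, Cdh11 differed by −0.03, −0.03 and −0.06 over the early, late and whole intervals. Of the list medians, the dermal condensate and skeletal muscle values over the whole interval became 0.05 and 0.02 with no level filter, and those of melanocytes and of the atypical cadherins 0.09 and 0.01. In the same setting the Langerhans and dendritic median became 0.49 (1.17 with the filter), sebaceous gland 0.96 (1.58), adipocyte 0.09 (0.48), repressors −0.08 (−0.22) and delta protocadherins −0.12 (−0.36). The fibroblast and trafficking medians lay near 0 and had both signs over the alternatives, at −0.03 to 0.00 and −0.01 to 0.04. No paired analysis was possible because each day has 1 array. Without scanner files, signal over background is unknown, which limits what can be said of Cdh4 and of Cdh10 on days 12 and 14.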
